A study of Mus musculus with 4 samples.

Results

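The stretch of mouse chromosome 1 from 71000001 to 74730000 (build mm9) lies to the left of every rearrangement made in a set of Epha4 locus mutants, and its contacts were followed across 4 capture Hi-C libraries. Capture Hi-C ligates DNA ends that lie close together in fixed nuclei, enriches a chosen region with probes and counts the joined pairs by sequencing. Its members are the pairs of 10 kb bins with both bins inside the stretch and at least 20 kb between their starts, which gave 69006 pairs out of 498501 in the whole map. Boundaries listed for wild type after 71600000, 72280000, 72920000, 73920000 and 74250000 divide it into 6 domains, numbered here from left to right and 600, 680, 640, 1000, 330 and 480 kb long. Domains 1 and 6 are cut by the edges of the stretch, so their lengths are not those of whole domains.

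All libraries came from distal limb buds of embryos at E11.5, from wild type (WT) and from mice homozygous for DelB, DelBs or InvF, with 1 library per genotype. In the published description of these alleles both deletions remove Epha4, which encodes an ephrin receptor of the limb, and the inversion lies near Wnt6. The maps themselves place a deletion from 76390001 to 78060000 (1670 kb) in DelB, a deletion from 76390001 to 77860000 (1470 kb) in DelBs and an inversion from 74830001 to 75900000 (1070 kb) in InvF. The stretch studied here ends 100 kb before the inversion and 1660 kb before both deletions, and none of the groups carries a listed change inside it. The labels used here do not give the number of embryos per library, and each library had a sequencing lane of its own, so genotype, embryo pool and lane cannot be told apart. With 1 library per genotype there is no spread between embryos and no p-value; every interval below is an exact 95% interval that covers counting error alone.

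Mammalian chromosomes fold into topologically associating domains (TADs), stretches in which segments meet one another more often than they meet the neighbouring stretch. Loop extrusion by cohesin, halted at convergent CTCF sites, is thought to form many of them, and boundaries between them limit which enhancers a promoter can meet. Contacts also cross boundaries, and TADs can fold onto one another at longer range. By RefSeq's gene order for GRCm38, the row of genes leading up to Wnt6, which encodes a secreted signalling protein, includes Fn1 (fibronectin), Xrcc5 (a subunit of the Ku complex in DNA repair), Igfbp2 and Igfbp5 (binding proteins of insulin-like growth factors), Tnp1 (a transition protein of sperm chromatin), Tns1 (a focal adhesion protein) and Vil1 (villin, of the gut brush border). There are 0 other protein-coding genes from Igfbp2 through Igfbp5 and Tnp1 to Tns1, then 11 between Tns1 and Vil1 and 10 between Vil1 and Wnt6. These genes are given for orientation, and their mm9 positions relative to the domains were not checked.

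The libraries held 5155274 (WT), 5543587 (DelB), 5832748 (DelBs) and 6073471 (InvF) counts, and 1149240, 1639570, 1745048 and 1446579 of them belonged to the member pairs. The stretch therefore took 33.3% of the counts at 20 kb or more in WT, 43.2% in both deletions and 34.2% in InvF. The map totals of the deletions lack the contacts of the deleted bins. The untouched right part, from 79100001, had a larger share there too, with 14.4% (DelB) and 13.8% (DelBs) against 11.2% in WT and 11.1% in InvF. Between 87.8% (WT) and 93.0% (DelBs) of member pairs had a count. In every library 0 bins fell below 10% of the median bin sum, so no bin of the stretch was missing. Coverage of single bins followed WT with an SD of 0.045 (DelB), 0.061 (DelBs) and 0.047 (InvF) on the log2 scale over all bins. The widest departure was the bin from 74090001 to 74100000 in domain 5, which stood at -0.37 in DelBs and at -0.17 in InvF.

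Most contacts stayed inside the domains. Pairs inside a domain made up 17.8% of member pairs (12303, against 56703 between domains) but 71.7% (WT), 70.1% (DelB), 69.9% (DelBs) and 71.5% (InvF) of counts. Part of that share follows from distance alone, since pairs inside a domain are close. Contacts are therefore given below as observed over expected, the count divided by the mean count at the same distance over the stretch in the same library, so that 1 is the average at that distance. The expected level is not corrected for uneven coverage of bins, and values from the authors' KR-balanced maps, in which every bin has about the same sum, are given beside the raw ones for some results. Over whole domains, raw and balanced values differed by up to 1.25-fold between domains and 1.46-fold within them.

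**Figure D1:**
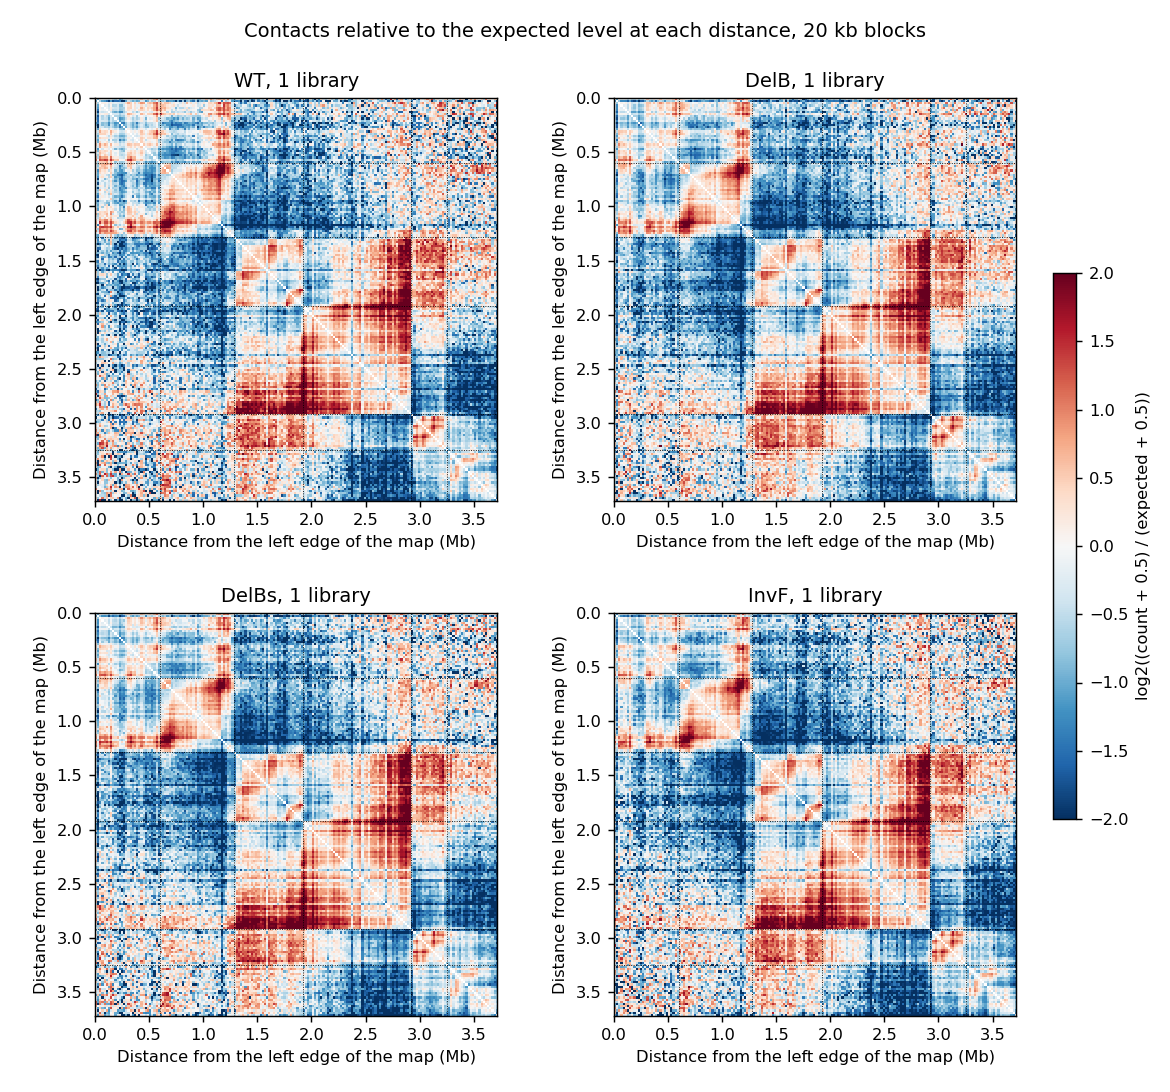
Contact maps of the stretch in WT, DelB, DelBs and InvF (1 library each), as log2 of (count + 0.5) over (expected + 0.5) in 20 kb blocks; both axes give distance from the left edge of the map in Mb, and dotted lines mark the 5 boundaries. The same pattern stands in all 4 maps: blue between domains 2 and 3, red between domains 3 and 5, and a dark red edge where domain 3 meets the right end of domain 4.

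Each of the 6 domains had a characteristic density. Domain 4 was the densest in raw counts, with observed over expected of 1.38 (WT), 1.43 (DelB), 1.39 (DelBs) and 1.42 (InvF). Domain 5 followed with 1.32, 1.35, 1.25 and 1.33 in the same order. It holds the bin thinly covered in DelBs, and in balanced values its DelBs level was 1.22 against 1.23 for WT. Domain 2 stood at 1.23, 1.21, 1.22 and 1.22. Domain 3 stood close to the average (1.08, 1.07, 1.12 and 1.09). Domains 1 and 6 lay below it in raw counts, at 0.856 to 0.877 and 0.847 to 0.887 over the libraries. In the balanced maps that order was not kept: in WT domain 1 stood at 1.23 and domain 6 at 1.12, and domain 4 at 1.12. The low raw density of the outer domains is thus not seen once bins are brought to equal sums, and all 6 domains lay above 1 in the balanced WT map (1.04 for domain 3 to 1.23).

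In raw counts the level inside domains also changed with distance. Over pairs at least 200 kb apart, domain 2 reached 1.70 times its expected level in WT and domain 4 reached 1.87, whereas domain 6 stayed at 0.693. No balanced values were taken over these distances, so the share of uneven bin coverage in this contrast was not tested. The mutants gave 1.65 to 1.68 for domain 2, 1.85 to 1.93 for domain 4 and 0.680 to 0.707 for domain 6. In domain 2 this excess was concentrated where its ends meet. Its first 100 kb (71600001 to 71700000) contacted its last 180 kb at 3.16 (3.10 to 3.23, from 9020 counts) in WT and at 3.19 to 3.22 in the mutants. Those last 180 kb, from 72100001 to 72280000, also met all of domain 1 at 1.50 in WT and 1.47 to 1.50 in the mutants, above the 0.816 (WT) of domains 1 and 2 as a whole. In the balanced WT map these values were 2.01 and 0.969. These sub-stretches were chosen after the maps had been seen.

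Boundaries were read with an insulation score, which sets the mean count of pairs that span a position (up to 200 kb on either side) against the mean over the stretch, as log2; a boundary is a dip at least 0.2 deep. The boundaries came from WT, so their presence there is a description. All 5 of 5 were found within 50 kb in DelB, DelBs and InvF. The strongest in raw counts lay after 72280000, between domains 2 and 3, where the score was -1.59 (WT), -1.56 (DelB), -1.62 (DelBs) and -1.63 (InvF). In raw counts it was the lowest score of the stretch in every library, and the highest stood at 73120000 inside domain 4, from 0.69 in DelBs to 0.79 in WT.

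The boundary after 73920000, between domains 4 and 5, came next at -1.38 in WT, -1.39 in both deletions and -1.38 in InvF. The boundary after 71600000 scored -0.93, -0.91, -0.92 and -0.98 (WT, DelB, DelBs, InvF). The boundary after 72920000 scored -0.85, -0.86, -0.81 and -0.84. The shallowest was the one after 74250000, at -0.56 in WT and InvF and -0.51 in both deletions. The 5 raw scores thus kept their order from deepest to shallowest in all 4 libraries. In balanced values another order held in all 4: the dip after 73920000 was the deepest (-1.23 in WT), followed by those after 72280000 (-1.18), 72920000 (-1.09), 71600000 (-0.79) and 74250000 (-0.29). In raw counts the mutants' scores at these positions minus the WT score lay between -0.051 and 0.049. Over all 334 positions the difference of raw scores from WT had an SD of 0.047 (DelB), 0.047 (DelBs) and 0.041 (InvF).

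A second measure, also taken within each library, gave a like ranking. Pairs up to 300 kb apart that crossed a boundary were set against pairs at the same distances inside the neighbouring domains. Across the boundary after 72280000 contacts ran at 0.294 of the level within in WT (0.287 to 0.301, from 7432 counts) and at 0.308 (DelB), 0.287 (DelBs) and 0.291 (InvF) in the mutants. Across the boundary after 73920000 they ran at 0.301, 0.302, 0.309 and 0.305. Crossing was more frequent after 72920000 (0.464, 0.459, 0.476 and 0.465) and after 71600000 (0.521, 0.541, 0.532 and 0.512). It was most frequent after 74250000, where 0.736 of the level within remained in WT and InvF and 0.761 and 0.759 in DelB and DelBs. By this measure the boundaries after 71600000 and 72920000 changed places, and DelB had its lowest value after 73920000. With balanced values the 2 strongest boundaries drew level in WT, at 0.387 and 0.391.

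**Figure D2:**
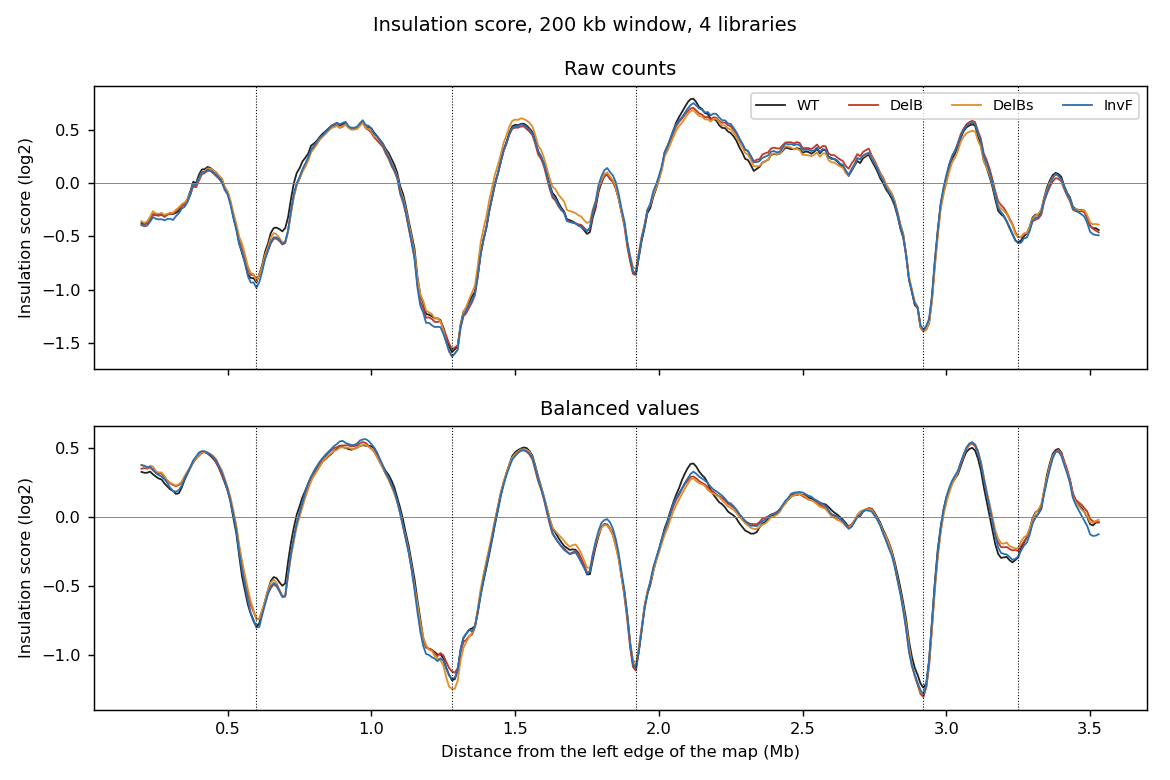
Insulation score (log2, 200 kb window) against distance from the left edge of the map in Mb, for raw counts (top) and balanced values (bottom), 1 line per library; dotted lines mark the 5 boundaries. The lines of the 4 libraries follow each other closely, with the deepest raw dip between -1.63 and -1.56.

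Some dips were not on the list. One after 72750000, inside domain 3, was present in all 4 libraries with a depth of 0.56 (WT), 0.53 (DelB), 0.47 (DelBs) and 0.59 (InvF). In each library it was shallower than the shallowest listed dip, that after 74250000, whose depths were 0.65, 0.56, 0.59 and 0.65. Another after 73330000 passed the limit of 0.2 only in WT with raw counts, at 0.22. In balanced values it passed in every library, at 0.29, 0.22, 0.25 and 0.25, so the dip itself was present in the mutants too. A dip after 73660000 passed in raw counts in DelBs and InvF alone, at 0.21 in both. WT and DelB also dipped there, just short of the limit: from 0.068 (WT) and 0.136 (DelB) the score rose to 0.267 and 0.324 at 73730000. A further dip at 71690000 to 71700000 was counted in the balanced maps of the 3 mutants but not in that of WT. Its depths were 0.83 (DelB), 0.785 (DelBs) and 0.83 (InvF), larger than the local rise on its left. WT dipped there too: its balanced score was -0.434 at 71660000, -0.497 at 71690000 and -0.323 at 71710000. DelB had -0.487, -0.578 and -0.414 at these positions. In WT, but in no mutant, the score at 71640000 (-0.529 in WT) was lower than at the dip. The dip itself was thus not particular to the mutants. WT had 7 raw boundaries in all, DelB 6, DelBs 7 and InvF 7, not all of them the same; in balanced maps WT had 7 and each mutant 8.

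The widest gap in raw score from WT lay about 100 kb inside domain 2. It was at 71700000 in DelB (-0.14) and InvF (-0.13) and at 71710000 in DelBs (-0.13). The window there held 14516 counts (WT), 18423 (DelB), 19656 (DelBs) and 16670 (InvF). Scaled to WT, these were 0.885 (0.866 to 0.905), 0.905 (0.885 to 0.924) and 0.923 (0.903 to 0.944) of the WT level. There WT stood apart from the other 3 libraries, and with 1 WT library genotype and library cannot be told apart. At the inside maximum at 73120000 the deletions were low, at 0.919 (DelB) and 0.917 (DelBs) of the WT level, and InvF was close to WT at 0.982 (0.968 to 0.996).

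Contacts between domains are where the stretch shows most of its structure. Among the 15 pairs of domains, observed over expected ran in WT from 0.389 for domains 4 and 6 to 1.89 for domains 3 and 5. Pairs on opposite sides of the strong boundary after 72280000 were low in the left of the map: domains 2 and 3 at 0.397, domains 1 and 3 at 0.528, and domains 2 and 4 at 0.585 in WT (0.438, 0.645 and 0.527 when balanced). Domains 2 and 3 lie side by side, yet they met less often at matched distance than did domains 1 and 2 (0.816), 3 and 4 (1.18), 4 and 5 (0.589) or 5 and 6 (0.662). The mutants gave 0.402 (DelB), 0.388 (DelBs) and 0.381 (InvF) for domains 2 and 3.

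Domains 3 and 5 showed the opposite behaviour. They are separated by the whole of domain 4, with 1010 to 1960 kb between their bins, and met at 1.89 in WT (1.86 to 1.92, from 14772 counts), 1.90 in DelB (1.87 to 1.92, from 23728), 1.84 in DelBs (1.81 to 1.86, from 24771) and 1.88 in InvF (1.86 to 1.91, from 18917). It was the highest value of the 15 pairs in every library, and the balanced maps gave 1.91, 1.91, 1.88 and 1.91. Domain 4, which lies between them, met domain 5 at no more than 0.603 in any library. Domains 3 and 6 were also above the average, at 1.22, 1.23, 1.22 and 1.20, and domains 4 and 6 far below it, at 0.389, 0.411, 0.406 and 0.385. Domain 3 therefore met the right-hand domains 5 and 6 more often, at matched distance, than domain 4, which lies closer to both, did.

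**Figure D3:**
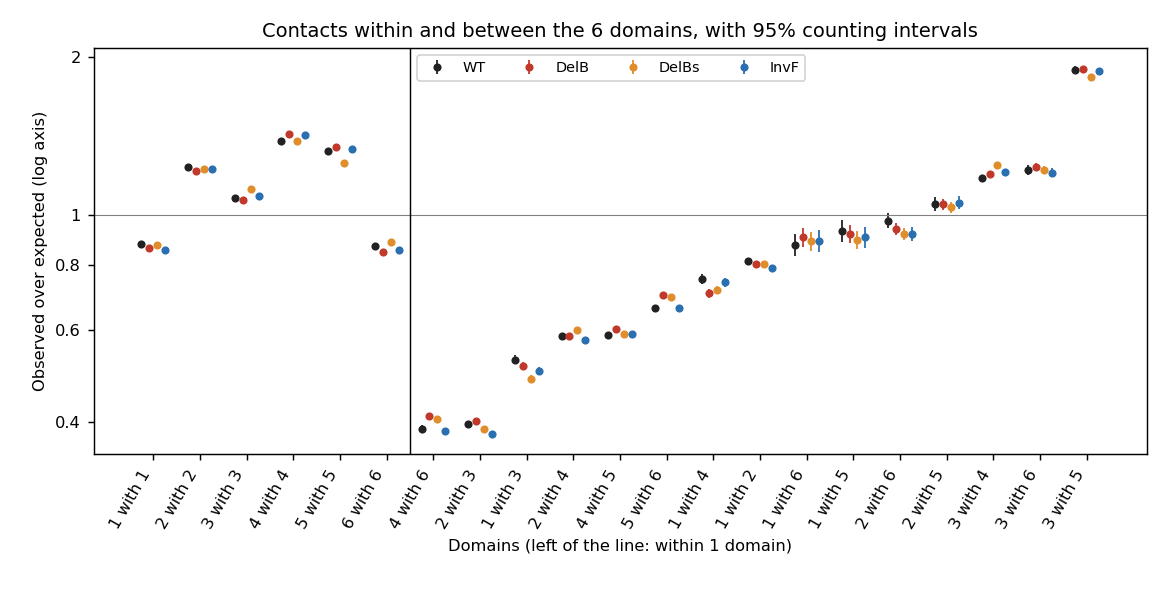
Observed over expected (log axis) for the 6 domains (left of the vertical line) and the 15 pairs of domains (right, in order of the WT value), 1 point per library with its 95% counting interval. Domains 3 and 5 stand highest at 1.84 to 1.90, and domains 4 with 6 and 2 with 3 lowest, at 0.381 to 0.411.

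The profile of domain 5 along the stretch showed where its distant contacts fell. From the windows of domain 2, where WT stood between 0.724 and 1.30, the value climbed past the boundary after 72280000 to 2.09 at 72300001 to 72400000 and 2.24 at 72400001 to 72500000. The mutants had 2.2025 (DelB), 2.25 (DelBs) and 2.26 (InvF) in the latter window. It stayed at 1.68 or more in WT through domain 3 up to 72900000, and then declined across domain 4, from 1.21 at 73000001 to 73100000 to 0.408 at 73800001 to 73900000, the window nearest to domain 5. In domain 6 it was 0.553 to 0.731. Both sides of the dip inside domain 3 took part alike, with 1.86 for the part left of 72750000 and 1.94 for the part right of it in WT. With domain 6 they were unequal, the left part standing at 1.29 and the right part at 1.08.

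DelBs stood apart from the other libraries in parts of domain 3. Its 2 parts on either side of the dip met at 0.920 (WT), 0.921 (DelB) and 0.923 (InvF), but at 0.997 (0.987 to 1.0066) in DelBs, where the dip was also shallowest. Over pairs at least 200 kb apart the whole domain reached 1.27 in DelBs against 1.16 to 1.19 in the other libraries. The left part met domain 4 at 1.21 in DelBs (1.197 to 1.213) and at 1.10 to 1.14 in the others. Balancing narrowed these gaps, to 0.953 against 0.899 to 0.912 between the parts and 1.13 against 1.0497 to 1.08 with domain 4, and domain 3 as a whole then stood at 1.04 in DelBs against 1.03 to 1.04 in the others. The bin that gained most coverage over WT in DelBs, by 0.18 on the log2 scale, lay at 72320001 to 72330000 in the left part, and its share in the difference was not tested. The 2 parts were compared after the values had been seen.

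**Figure D4:**
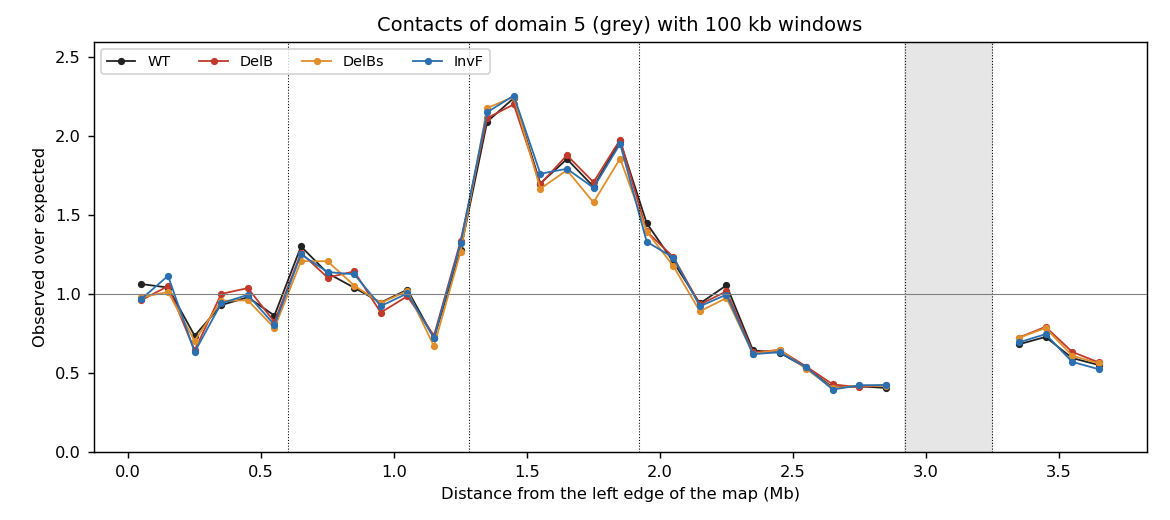
Observed over expected of contacts between domain 5 (grey band) and 100 kb windows, against distance from the left edge of the map in Mb, 1 line per library; dotted lines mark boundaries. The plateau over domain 3 and the fall across domain 4 to 0.408 in WT coincide in the 4 libraries.

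The contacts of domain 3 ran the other way, and grew from left to right across domain 4. The pair as a whole stood at 1.18 (WT), 1.19 (DelB), 1.24 (DelBs) and 1.21 (InvF). With domain 4 cut into 5 segments of 200 kb from left to right, it met domain 3 in WT at 0.594, 1.01, 1.21, 1.94 and 3.34. In DelB the 5 values were 0.592, 0.969, 1.20, 1.91 and 3.47, in DelBs 0.640, 1.02, 1.26, 1.94 and 3.52, and in InvF 0.606, 0.993, 1.24, 1.95 and 3.57. The far end of domain 4 was thus the part that met domain 3 most often for its distance, and the adjoining segment the part that met it least.

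The last 60 kb of domain 4, from 73860001 to 73920000, carried much of this. They met domain 3 at 4.73 in WT (4.64 to 4.83, from 9004 counts) and at 5.04 (DelB), 4.92 (DelBs) and 5.04 (InvF) in the mutants, or 4.37 to 4.55 in balanced values. They met the rest of their own domain at 1.56 to 1.59, but domain 5, which begins where they end, at 0.480 to 0.512 and domain 6 at 0.342 to 0.407. With domain 2, beyond the strong boundary, the value was 1.22 in WT (1.15 to 1.30, from 1013 counts) and 1.50, 1.49 and 1.40 in DelB, DelBs and InvF. Scaled to WT, that made 1.36 times the WT contacts in DelB (1.26 to 1.47), 1.39 in DelBs (1.28 to 1.49) and 1.14 in InvF (1.05 to 1.23). Over domains 2 and 4 as a whole the corresponding ratios were 1.10, 1.16 and 1.01. The rise was not confined to domain 2. In the same order the 60 kb stood at 1.24, 1.21 and 1.11 with domain 1, and at 1.17, 1.18 and 1.11 with domain 3. With domain 6 they stood at 1.14, 1.26 and 1.16. They were nearer to WT with domain 5 (0.9999, 1.02 and 1.07) and with the rest of domain 4 (1.01, 1.01 and 1.03). The 200 kb segments and the 60 kb stretch were chosen after the values had been seen, and these ratios carry no check by a second library.

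Single bin pairs gave the sharpest view. The 10 pairs with the highest WT values were taken among pairs at least 100 kb apart with 30 or more WT counts, no 2 of them close together on both sides, so the WT values are selected and only the other libraries say anything further. Of these 10, 7 had their right end between 73860001 and 73910000, inside the last 60 kb of domain 4, and 6 joined domains 3 and 4. Their left ends were spread through domain 3 and the start of domain 4. A further anchor lay at the boundary after 72920000: 3 of the 10 had an end between 72910001 and 72930000.

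The highest joined 72910001 to 72920000, the last bin of domain 3, with 73860001 to 73870000 near the far end of domain 4, 950 kb away. It held 165 counts (WT), 276 (DelB), 266 (DelBs) and 214 (InvF), where 8.63 (WT) and 11.2 to 14.3 (the mutants) were expected. That is 19.1 times the expected count in WT, 21.2 in DelB (18.8 to 23.8), 18.6 in DelBs (16.5 to 21.0) and 19.1 in InvF (16.6 to 21.9). Balanced values were lower, at 12.9, 13.5, 11.9 and 12.0. The next joined 72920001 to 72930000, the first bin of domain 4, with 73660001 to 73670000. It stood at 14.9 in WT and lower in the others, at 11.4 in DelB, 9.32 in DelBs and 11.7 in InvF. Within domain 2, 71690001 to 71700000 met 72150001 to 72160000 at 9.27 (WT), 8.41 (DelB), 8.81 (DelBs) and 9.39 (InvF), and at 5.55 in the balanced WT map.

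In each of the 3 libraries that did not choose them, all 10 pairs stood above 1. Their medians were 7.43 (DelB), 8.38 (DelBs) and 8.21 (InvF), against a selected 9.36 in WT, and no value was under 5.81. Each of the 10 exceeded at least 98.66% of pairs at its own distance in every library. In balanced values the medians were lower, at 5.43 (WT), 4.11 (DelB), 4.76 (DelBs) and 4.68 (InvF). None of these pairs reached into domains 5 or 6, so none joined domains 3 and 5, where a bin pair held 6.99 counts on average in WT, under the 30 required here.

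The level of the whole stretch was compared with WT after scaling each library to pairs 20 kb to 2 Mb apart on the right of every rearrangement, which share no pair with it. It was 1.0035 times the WT level in DelB (1.0011 to 1.0059), 1.06 in DelBs (1.0575 to 1.0625) and 1.0404 in InvF (1.0378 to 1.0429). These departures exceed counting error, but another scaling moved them further in the deletions: by the total of all counts the ratios were 1.33 (DelB), 1.34 (DelBs) and 1.07 (InvF). The WT total includes the bins deleted in DelB and DelBs.

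For the comparisons that follow, libraries were scaled to untouched pairs on both sides, with factors of 1.43, 1.50 and 1.24; 59.1% of the WT counts behind these factors lie in the stretch itself, so its mean level is largely set by the scaling and only its distribution is informative. That distribution leaned with distance. DelB stood at 0.952 of WT for pairs 20 to 100 kb apart, at 0.990 for 100 to 500 kb, at 1.05 for 500 to 1000 kb and at 1.11 (1.0995 to 1.12) for 1000 to 2000 kb. DelBs rose in the same manner from 0.972 over 1.0055 and 1.07 to 1.14 (1.13 to 1.15). InvF went from 0.993 over 1.02 and 1.04 to 1.03, and fell to 0.941 (0.922 to 0.960) beyond 2 Mb, where DelB and DelBs had 1.05 and 1.06.

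**Figure D5:**
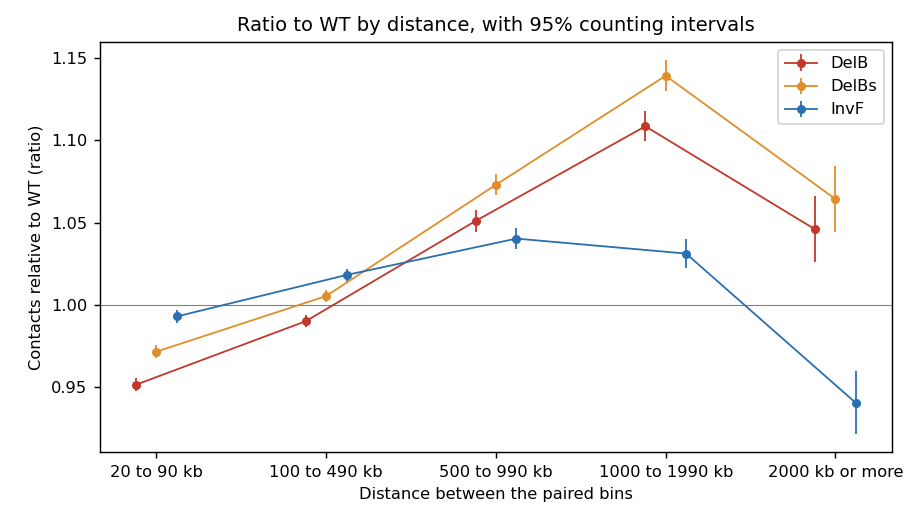
Contacts in each mutant relative to WT (ratio, both-side scaling) by distance between the paired bins, with 95% counting intervals; 1 library per genotype. DelB and DelBs climb from 0.952 and 0.972 at short range to 1.11 and 1.14 at 1 to 2 Mb, and InvF ends at 0.941.

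The same lean appears as the slope of contacts against distance on log axes, from 20 kb to 1.5 Mb: -1.05 (WT), -0.995 (DelB), -0.989 (DelBs) and -1.03 (InvF). On the untouched right side of the map, which shares no pair with the stretch, the slopes were -0.969, -0.931, -0.917 and -0.949, so the libraries fell in the same order there. The shallower decay was therefore not particular to these domains.

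Domain by domain, ratios to WT stayed close to 1. Within the 6 domains DelB ranged from 0.935 to 1.0051 of WT, DelBs from 0.925 to 1.02 and InvF from 0.979 to 1.03. Between domains DelB ranged from 0.964 to 1.13 with 13 of 15 pairs above WT, DelBs from 0.897 to 1.16 with 13 of 15 above, and InvF from 0.852 to 1.06 with 6 of 15 above. The highest were domains 4 and 6 in DelB (1.13, 1.11 to 1.16), domains 2 and 4 in DelBs (1.16, 1.14 to 1.18) and domains 3 and 4 in InvF (1.06, 1.0485 to 1.07). The lowest between domains was domains 1 and 6 in all 3 mutants, from 1635 counts in WT and 2260, 2195 and 1732 in DelB, DelBs and InvF.

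With each distance matched, the values between domains ran from 0.938 to 1.06 in DelB, from 0.919 to 1.06 in DelBs and from 0.943 to 1.03 in InvF. For domains 1 and 6, 75.9% of the expected level comes from the pair itself, so matching draws its value towards 1. Over the other pairs of domains the unmatched ratios ran from 0.999 to 1.13 (DelB), from 0.986 to 1.16 (DelBs) and from 0.892 to 1.06 (InvF). Pooled over all pairs between domains, the ratio went from 1.05 to 1.01 in DelB, from 1.08 to 1.02 in DelBs and from 1.02 to 0.994 in InvF. What was left after matching included domains 5 and 6 at 1.06 in DelB and 1.05 in DelBs, against 0.999 in InvF, and domains 1 and 3 at 0.974, 0.919 and 0.952. The inter-domain pattern as a whole correlated between every pair of libraries with Pearson's r of 0.995 to 0.999 and Spearman's rho of 0.989 to 0.996 over the 15 pairs, which share bins and expected levels and so are a description.

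Blocks of 100 kb were then searched for changes past 1 log2 unit in either direction. Over the whole map 7.1% of the 3197 blocks tested were higher and 0.0% lower by that much in DelB. The shares were 4.77% and 0.0604% of 3313 blocks in DelBs, and 2.9% and 4.99% of 4372 in InvF. Fewer blocks were tested in the deletions, and their shares do not count the contacts lost with the deleted bins. In the untouched stretch there were 0 higher and 0 lower of 701 in DelB, 0 and 0 of 701 in DelBs, and 0 and 1 of 699 in InvF. The log2 ratios ran from -0.60 to 0.57 in DelB, from -0.90 to 0.59 in DelBs and from -1.52 to 0.47 in InvF. Their SD was 0.157, 0.173 and 0.158, where counting error alone would give 0.113, 0.112 and 0.118.

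The 1 block lower in InvF joined both ends of the stretch, 71000001 to 71100000 with 74400001 to 74500000, 3.4 Mb apart. It rested on 27 counts in InvF and 64 in WT, a ratio of 0.339 (0.208 to 0.540). Scaled to WT, DelB had 48.8 and DelBs 45.4 there, both also under the WT count, and 56.4 were expected in WT. Matched for distance the InvF value was -0.92, short of 1 unit, but the block's own pairs enter the expected level and draw it towards 0.

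The other extreme blocks were mostly far apart. In DelB the lowest were at 2.7 to 3.5 Mb, led by 71000001 to 71100000 with 74200001 to 74300000 (0.655, 0.456 to 0.941, from 62 and 66 counts). In DelBs the lowest was the first block of domain 1 with 74300001 to 74400000, at 0.531 (0.364 to 0.770, from 54 and 68 counts). The highest in DelB joined 73600001 to 73700000 in domain 4 with 74400001 to 74500000 in domain 6, at 1.49 (1.26 to 1.76, from 439 and 206 counts), and DelBs and InvF also stood above WT there, with 263 and 253 scaled counts. In DelBs it was 71700001 to 71800000 in domain 2 with 73800001 to 73900000 at the far end of domain 4, at 1.51 (1.27 to 1.79, from 449 and 199 counts), where DelB and InvF had 274 and 229 scaled counts. In the 5 highest blocks of each mutant the other mutants also lay above WT, except in the block of 71800001 to 71900000 with 74400001 to 74500000, high in DelBs, where InvF had 73.2 scaled counts and WT 87. All 3 comparisons share the WT library.

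Reproducibility was high up to 2 Mb and fell beyond. Over 2775 blocks of 50 kb, observed over expected correlated between libraries with Pearson's r from 0.951 (WT and InvF) to 0.967 (DelB and DelBs). By distance it was 0.988 to 0.995 at 20 to 100 kb, 0.989 to 0.994 at 100 to 500 kb, 0.987 to 0.990 at 500 to 1000 kb and 0.959 to 0.973 at 1 to 2 Mb. Beyond 2 Mb it dropped to 0.609 to 0.738. All pairs beyond 2 Mb together held 17739 counts in WT, and a 10 kb pair in domains 1 and 6, the sparsest of the domain pairs, held 0.568 on average. Blocks of one map share bins, so no p is given.

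A count-based measure asked whether 2 libraries differed by more than counting error, as chi-square per pair over pairs with at least 20 counts, where 1 is counting error alone. After matching distance it was 1.07 for WT and DelB, 1.12 for WT and DelBs, 1.05 for WT and InvF, 1.09 for DelB and DelBs, 1.03 for DelB and InvF and 1.06 for DelBs and InvF. The 3 pairs of libraries with WT did not all stand above those among the mutants: WT with InvF lay below DelB with DelBs. With each bin's coverage ratio fitted, a step added after the values had been seen, it became 1.04, 1.06, 1.01, 1.01, 1.0049 and 1.0027. The ratios were fitted to the same counts with no allowance for their number, which by itself lowers the value. After this step 1 no longer marks counting error alone. On the right part the step gave values from 0.944 (DelB and InvF) to 1.03 (WT and DelBs). By distance, the highest values within the stretch fell at 20 to 100 kb in comparisons with DelBs, at 1.35 with WT and with DelB. On the right part of the map, from 79100001 to 81000000, the whole-range values were 1.24 for WT and DelBs and 1.03 for WT and DelB. At 20 to 100 kb that part had 1.88 for WT and DelBs, 1.90 for DelB and DelBs and 1.07 for WT and DelB. The excess with DelBs at short range was thus larger there than in the stretch.

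The authors' deposited difference maps begin at 73000001, so they cover 14535 member pairs on the right, without their first bin. For DelB the authors' deposited table had 1.46% of its values other than 0, and 2 above and 1 below 0 fell in the stretch. For DelBs the authors' deposited table had 1.44%, with 3 above and 2 below 0 in the stretch. For InvF the authors' deposited table had 4.19%, and the stretch held 142 above and 16 below 0, or 1.09% of its pairs there. Of those 142 above 0 in the authors' deposited table, 126 lay within domain 4, at 20 to 800 kb, and 2 had an end in the last 200 kb of the stretch. Of all 14535 covered pairs, 4005 lay within domain 4 and 3210 had an end in the last 200 kb. Those 126 pairs held 11138 counts in InvF and 6169 in WT, before scaling by the InvF factor of 1.24. Domain 4 as a whole, after that scaling, stood at 1.03 of WT (1.03 to 1.04) in InvF. Those pairs were marked by the authors on the same maps, so their counts give no independent size.

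Contacts that leave the stretch to the right changed more than those inside it. Domain 6, nearest to the rearrangements, sent 24.2% of its counts beyond 74730000 (WT), 22.9% (DelB), 23.0% (DelBs) and 28.3% (InvF). Relative to WT its outward contacts were 1.22 (1.21 to 1.23) in InvF, whose inversion starts 100 kb away, and 0.909 and 0.958 in the deletions. Domain 5 had 0.941 in InvF and domains 1 to 4 had 0.858 to 0.895, so domain 6 alone gained outward contacts with the inversion. In the deletions, domains 1 to 5 had outward ratios of 0.686 to 0.798. The deleted bins are among those counted in WT, and their share in these ratios was not tested. The boundary after 74250000 separates domain 6 from the rest, and the one after 73920000 lies between domains 4 and 5. Their raw scores in InvF differed from WT by -0.0060 and 0.0033.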

How the data were processed

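Per the labels' protocols, cells of E11.5 distal limb buds were fixed and adaptor-ligated DNA was captured with custom SureSelect probes and sequenced as paired ends. Per the submitters' processing notes, Bowtie2 2.2.6 and build mm9 were used. Raw maps, as deposited, are counts of read pairs between 10 kb bins (mapping quality 30 in the file names). The authors' KR-balanced maps, so named in the files, are a signal; 3 to 16 missing values per map were read as 0. The authors' difference maps are a score whose scale, like any removal of duplicates, is not stated in the labels used here. There were 0 unmatched columns.

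Further steps used Python 3.11.15, pandas 2.3.3, numpy 2.4.6, scipy 1.17.1 and matplotlib 3.10.9. Rearrangements were located from loss or rejoining of contacts. Intervals are exact Poisson for observed over expected and exact conditional binomial for ratios. A 100 kb block needed 50 counts in either library and got a pseudocount of 1. The regions named are the 6 domains, 5 boundaries, 15 domain pairs, 10 WT pixels and, per mutant, the 5 highest and 5 lowest blocks; others are marked where given. The members and lists were chosen with earlier results of these data known. Functions were checked on simulated maps. Alternatives changed the scaling, block size, window, depth, distance matching and balancing.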

Additional observations from a re-analysis of the deposited data

How the results depend on the processing

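No paired analysis was possible because each genotype has 1 library, and for the same reason no library could be left out. All 5 boundaries were found in every library with a 100 kb window, a required depth of 0.4, matching within 20 kb and balanced values. A 400 kb window found 4 in each, WT included, missing the one after 74250000. Scores with that window stop 400 kb before the edge of the stretch, which leaves little room right of that boundary for a dip to show. This miss therefore does not tell whether the boundary depends on the window. Level of the stretch relative to WT in DelB, DelBs and InvF: all-count scaling gave 1.33, 1.34 and 1.07, right-side pairs from 200 kb gave 0.970, 1.02 and 1.03, and balanced values gave 1.02, 1.0071 and 0.996, so the side of 1 turned in DelB and InvF. All-count scaling would shift log2 ratios by 0.41, 0.40 and 0.078. Blocks of 50 kb gave 2 past 1 log2 unit in DelB, both higher, and the 1 block of InvF became 0 with blocks of 50 kb, of 200 kb or with distance matched. Each 50 kb block also needed 50 counts, and the InvF block held 64 in WT, so most of its parts could not be tested. Matching draws its value towards 0, since its own pairs enter the expected level. The median correlation of 0.959 became 0.822 with 20 kb blocks, 0.987 with 100 kb blocks and 0.950 with balanced values. Pooled contacts within domains were 0.973, 0.990 and 1.0094 (DelB, DelBs, InvF). With right-side scaling they were 0.981, 1.03 and 1.04, distance-matched 1.005, 1.0036 and 1.0056, and balanced 0.982, 0.974 and 0.995. Between domains right-side scaling gave 1.06, 1.13 and 1.05, distance matching 1.01, 1.02 and 0.994, and balanced values 1.06, 1.06 and 1.0066. Pooled crossing of boundaries was 0.449, 0.458, 0.458 and 0.447 (WT, DelB, DelBs, InvF). Up to 500 kb it was 0.426, 0.430, 0.431 and 0.420, with balanced values 0.491, 0.501, 0.499 and 0.492, and up to 200 kb 0.454 in WT. Balanced medians of the 10 WT pairs were 4.11, 4.76 and 4.68. Balanced values kept 57 of 60 inter-domain values on the same side of 1, the exceptions being domains 2 and 5 in WT, DelB and DelBs, and 16 of 24 within domains. The cause of these shifts was not tested. Low counts limit what can be seen at the longest distances: domains 1 and 6 held 0.568 counts per 10 kb pair in WT and at most 0.785 (DelB).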
